A study of Homo sapiens with 4 samples.

Results

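The cap'n'collar (CNC) and small MAF transcription factors, with their inhibitor KEAP1, were examined in pancreatic cancer cells treated with cannabichromene (CBC), a phytocannabinoid. The 8 genes NFE2L1, NFE2L2, NFE2L3, KEAP1, BACH1, MAFF, MAFG and MAFK were taken by symbol from the 58233 Ensembl gene identifiers of the deposited count table, and each symbol matched 1 identifier. Messenger RNA had been sequenced in 4 libraries, 1 per condition. MIA PaCa-2 and PANC-1 cells, both established human pancreatic cancer lines labelled WT, were collected after 24 h with PBS or CBC, and the study's methods give 35 μM CBC for MIA PaCa-2 and 30 μM for PANC-1. The control is PBS in the labels, while the methods call it a vehicle control and dissolve CBC in acetonitrile. The doses differed between the lines, so their values are given side by side. With 1 library per condition, no test was possible within a line. The 95% intervals given with fold changes and with shares cover counting error only.

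CNC factors are leucine zipper proteins that bind antioxidant response elements as partners of the small MAF proteins MAFF, MAFG and MAFK, which have no activation domain of their own. NRF2, the product of NFE2L2, is kept low by KEAP1, a cysteine-rich adaptor that hands it to a CUL3 ubiquitin ligase until oxidants or electrophiles modify KEAP1. BACH1 occupies the same elements as a heme-sensitive repressor, HMOX1 being its best known target, while NRF1, the product of NFE2L1, is released from the endoplasmic reticulum membrane when proteasomes are inhibited and activates proteasome subunit genes.

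The genes that differed most between the CBC and PBS libraries of MIA PaCa-2, and in the fit over both lines, were MAFF, NFE2L1 and MAFG, and the 250 bases before their start sites in RefSeq (GRCh38.p14) were therefore read. An entry was found for 7 of the 8 genes, with 13 start sites in all, and MAFK was not among them. In the first NFE2L1 window, on the plus strand at chr17:48048109-48048328 up to its first annotated exon, the CCAAT box (CCAAT) is in capitals. All motifs were searched on both strands, so capitals can show the reverse complement of the letters given. In the MAFG window, on the minus strand at chr17:81927736-81927985, the capitals mark an E-box (CACGTG). This window also holds the start of the lncRNA gene MILIP on the other strand.
NFE2L1: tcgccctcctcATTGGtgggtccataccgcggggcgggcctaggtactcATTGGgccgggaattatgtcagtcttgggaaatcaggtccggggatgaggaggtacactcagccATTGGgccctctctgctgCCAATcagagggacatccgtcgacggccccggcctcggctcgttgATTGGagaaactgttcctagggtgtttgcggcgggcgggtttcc
MAFG: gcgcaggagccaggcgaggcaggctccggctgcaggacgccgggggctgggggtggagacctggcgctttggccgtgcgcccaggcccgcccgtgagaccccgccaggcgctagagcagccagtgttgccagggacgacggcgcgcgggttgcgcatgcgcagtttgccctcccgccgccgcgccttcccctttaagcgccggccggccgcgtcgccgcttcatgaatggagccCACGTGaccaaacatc
The first NFE2L1 window held 5 CCAAT boxes. At least 1 was present in 32.0% of the 34943 distinct RefSeq windows of this length, and 0.321% of them held 5 or more. The E-box was present in 6.32% of all windows. Both of these motifs were added to the search after these letters had been seen.

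MAFF, BACH1 and KEAP1 windows held other elements, shown in capitals within 30 bases each. The MAFF stretches are printed from the plus strand and lie inside exons of a longer MAFF transcript, at chr22:38201929-38201958 (a cAMP response element, TGACGTCA), chr22:38201861-38201890 (an antioxidant response element core, TGACNNNGC) and chr22:38201786-38201815 (an E-box). The BACH1 stretch, also from the plus strand, holds an AP-1 element (TGANTCA) at chr21:29298862-29298891. The KEAP1 stretches, each with a core of the antioxidant response element, are printed from the minus strand, on which the gene lies, at chr19:10502807-10502836 and chr19:10502784-10502813. The MAFF core and the second KEAP1 core are on the strand opposite to the gene, and the first KEAP1 core is on its own strand. Of the 250 bases of that KEAP1 window, 125 lie inside annotated KEAP1 exons.
MAFF cAMP response element: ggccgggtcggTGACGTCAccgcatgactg
MAFF antioxidant response element core: gcttccaggggGCGGGGTCAtacgggggcg
MAFF E-box: ctcgcgaggtgtCACGTGaacgcacccagc
BACH1 AP-1 element: gcgcggaaggagTGAGTCAcctgaccgctg
KEAP1 first core: gacttttattgTGACACGGCgggcgcccgg
KEAP1 second core: cgcccggctctGCTTAGTCAtggtgacctg
The MAFF cAMP response element ended 47 bases before a start site, and this motif was found in 1.63% of all windows. Antioxidant response element cores ended 114 bases before the same MAFF start and 46 and 23 bases before a KEAP1 start, against 10.9% of windows with at least 1. The BACH1 AP-1 element ended 42 bases before a start, and 6.59% of windows held one. A second MAFF window, at another start site, also had an E-box. The first MAFF window also held a CCAAT box that ended 230 bases before its start, a motif in 32% of all windows. The MAF half-site TGCTGAC (3.42% of windows) and the C/EBP-ATF element TGATGNAA (3.15%) were searched as well and were in none of the 13 windows. These matches describe letters only, and binding was not measured.

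The libraries held 21742775 to 27903667 counts on genes. Epithelial keratin genes KRT8, KRT18 and KRT19 and the mesenchymal gene VIM were expressed in all 4 libraries. The keratin gene KRT7 was low, with 2 and 52 counts in MIA PaCa-2 and 49 and 58 in PANC-1, PBS first. CDH1 was at 0 in both MIA PaCa-2 libraries, and EPCAM was at 0 and 1 counts there. The markers PTPRC (leukocytes), PECAM1 (endothelium) and INS (beta cells) had no count in any library, and PRSS1 (acinar cells) had at most 1. The fibroblast marker COL1A1 had 11 and 13 counts in MIA PaCa-2 and 3037 and 1268 in PANC-1. The share of counts on mitochondrial genes was lower in the CBC library of both lines, at 3.86% against 5.81% in MIA PaCa-2 and 2.42% against 4.63% in PANC-1, and its part in the results was not tested. Because RNA came from bulk cultures, fewer expressing cells and less RNA per cell cannot be told apart.

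Each gene is given as raw counts and as CPM, its counts relative to a library size adjusted by edgeR's TMM factors. Only genes with 1 CPM or more on either side of a comparison entered it, and it was past the fold threshold at a log2 fold change above 1 or below -1. The effect of CBC over both lines was tested with the cell line as a block. All 8 genes were measurable in every comparison.

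**Figure D1:**
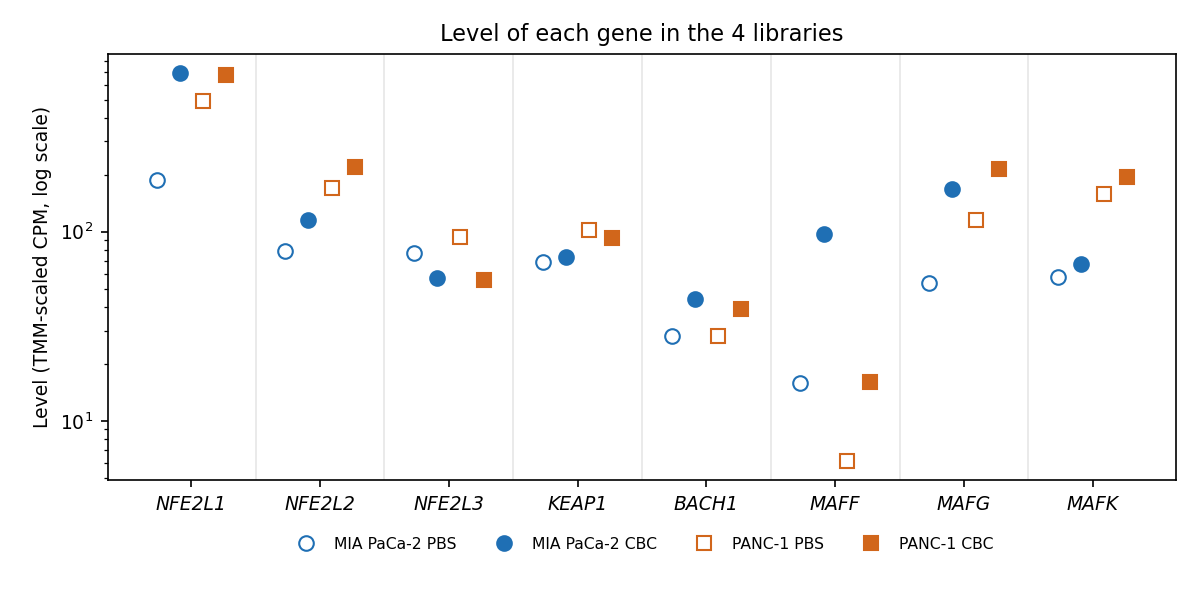
TMM-scaled CPM (log axis) of the 8 genes in the 4 libraries, with open symbols for PBS, filled symbols for CBC, circles for MIA PaCa-2 and squares for PANC-1. MAFF stood between 6.16 and 97.2 CPM and NFE2L1 between 187 and 688 CPM, while KEAP1 kept within 68.8 and 102 CPM.

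In MIA PaCa-2 cells, 3 of the 8 genes (MAFF, NFE2L1 and MAFG) were past the threshold in the higher direction, where 11.5% of all 14001 genes compared were. None of the 8 was past it in the lower direction, where 8.97% of all genes were. In PANC-1 cells, 1 of the 8 genes (MAFF) was past it in the higher direction, against 7.71% of 14091 genes, and 0 in the lower, against 7.03%. Over both lines, 2 of the 8 genes (MAFF and MAFG) rose with CBC at an adjusted p under 0.05 by edgeR's quasi-likelihood test, against 2.26% of 16381 genes called higher. None was called lower, against 2.45%. At an unadjusted p under 0.05, NFE2L1, NFE2L2, NFE2L3 and BACH1 also passed, which makes 6 of the 8, where 20.9% of all genes did.

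**Figure D2:**
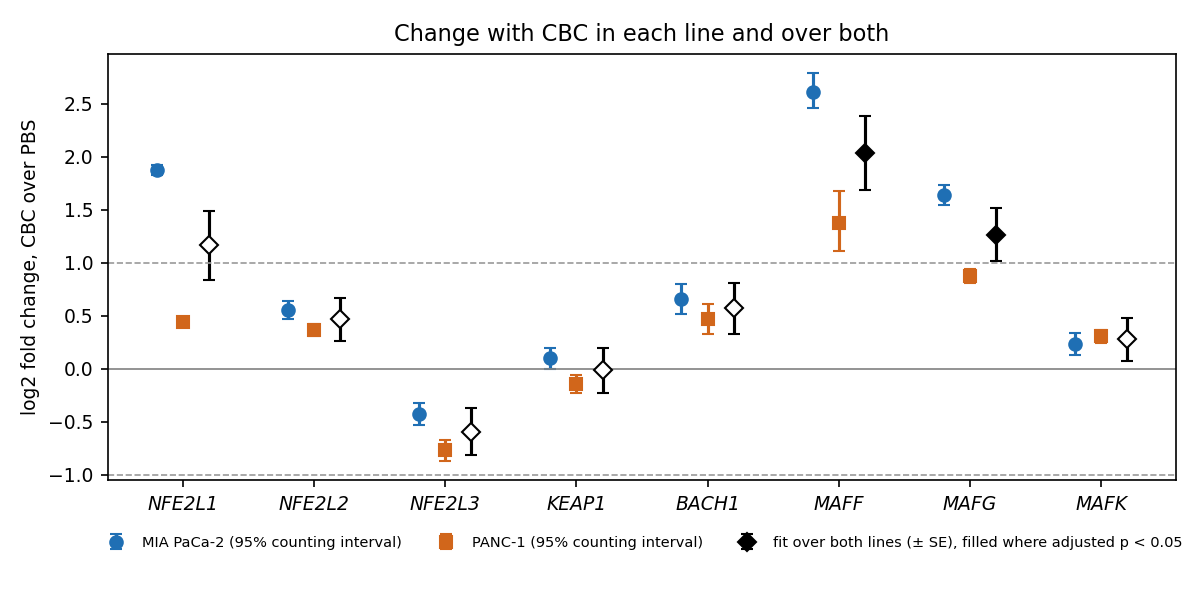
Log2 fold change of CBC over PBS for each gene in MIA PaCa-2 (circles) and PANC-1 (squares) with 95% counting intervals, and in the fit over both lines (diamonds, ± SE, filled where the adjusted p was under 0.05). Dashed lines lie at 1 and -1. MAFF (2.03) and MAFG (1.27) carry the filled diamonds, and NFE2L1 has the widest gap between the lines, at 1.88 and 0.45.

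MAFF showed the largest change of the 8 genes in both lines. MAFF (ENSG00000185022, chr22:38200767-38216507, plus strand) encodes the small MAF protein known for its induction by stress and cytokines. It had 351 counts (15.8 CPM) with PBS and 2405 counts (97.2 CPM) with CBC in MIA PaCa-2, and 140 counts (6.16 CPM) and 441 counts (16.1 CPM) in PANC-1. The PANC-1 CBC library thus only reached the level of the MIA PaCa-2 control. MAFF was 6.13-fold higher with CBC in MIA PaCa-2 (log2 2.62, interval 2.46 to 2.79) and 2.60-fold higher in PANC-1 (log2 1.38, interval 1.11 to 1.67). It rose over both lines by 2.03 ± 0.35 on the log2 scale (SE, n = 2 libraries per treatment, adjusted p = 0.0230 by edgeR's quasi-likelihood test, Benjamini-Hochberg).

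MAFG was the other gene called over both lines. MAFG (ENSG00000197063, chr17:81918270-81927735, minus strand) encodes the small MAF that is broadly expressed and most studied as a partner of NRF2. Its level went from 1194 counts (53.7 CPM) to 4145 counts (168 CPM) in MIA PaCa-2 and from 2638 counts (116 CPM) to 5833 counts (213 CPM) in PANC-1. Both CBC libraries lay above both PBS libraries, and the share of all genes with this order is not given here. The difference was 3.12-fold in MIA PaCa-2 (log2 1.64, interval 1.55 to 1.74) and 1.84-fold in PANC-1 (log2 0.88, interval 0.81 to 0.95). MAFG rose over both lines by 1.27 ± 0.25 on the log2 scale (SE, n = 2 libraries per treatment, adjusted p = 0.0334 by edgeR's quasi-likelihood test, Benjamini-Hochberg). Without the block for cell line neither MAFF nor MAFG was called (adjusted p = 0.99995 for both by edgeR's quasi-likelihood test, Benjamini-Hochberg). MAFG shares 105 exon bases, 2% of its exon length, with SIRT7 on the same strand. SIRT7 itself had 925 and 2176 counts in MIA PaCa-2 and 1473 and 2918 in PANC-1, and its part in the MAFG counts was not tested. MILIP, the lncRNA gene that starts 94 bases from MAFG on the other strand, had 124 and 249 counts in MIA PaCa-2 (log2 0.84, interval 0.54 to 1.17) and 341 and 525 in PANC-1 (log2 0.36, interval 0.16 to 0.56).

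MAFK stood apart from the other small MAF genes. MAFK (ENSG00000198517, chr7:1530702-1543043, plus strand) had 1274 counts (57.3 CPM) with PBS and 1666 counts (67.4 CPM) with CBC in MIA PaCa-2. In PANC-1 it had 3583 counts (158 CPM) and 5327 counts (195 CPM). Both values in PANC-1 lay above both in MIA PaCa-2, and the share of all genes with this order is not given here. The log2 fold change with CBC was 0.23 (interval 0.13 to 0.34) in MIA PaCa-2 and 0.31 (0.25 to 0.37) in PANC-1, and the fit over both lines gave 0.28 ± 0.20 (SE, adjusted p = 0.476 by edgeR's quasi-likelihood test, Benjamini-Hochberg). Of the 3 small MAF genes it had the smallest difference with CBC in either line.

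The makeup of the small MAF counts therefore differed between libraries. It is given here as a share of the counts of the 3 genes, not adjusted for transcript length, with a Wilson 95% interval. MAFK made up 45.2% (43.4 to 47.0) of them with PBS and 20.3% (19.4 to 21.2) with CBC in MIA PaCa-2. In PANC-1 its share was 56.3% (55.1 to 57.5) and 45.9% (45.0 to 46.8). The MAFF share was higher with CBC in both lines, at 12.5% (11.3 to 13.7) and 29.3% (28.3 to 30.3) in MIA PaCa-2 and at 2.20% (1.87 to 2.59) and 3.80% (3.47 to 4.16) in PANC-1. MAFG made up 42.4% and 41.5% of the counts in the PBS libraries and 50.5% and 50.3% in the CBC libraries of MIA PaCa-2 and PANC-1. The MAFG share was thus nearly equal in the lines under each treatment, and the lines differed in how MAFF and MAFK divided the remainder. Per kb of canonical transcript, the order of the shares changed in the CBC libraries. MAFF, MAFG and MAFK then made up 43.6%, 35.2% and 21.2% in MIA PaCa-2 and 6.37%, 39.5% and 54.1% in PANC-1. With the length of all annotated exons, MAFG (32.0 CPM per kb) stayed above MAFF (17.3) in CBC-treated MIA PaCa-2. On the canonical length, the summed level of the 3 genes went from 34.2 to 94.0 CPM per kb in MIA PaCa-2 and from 72.1 to 107 CPM per kb in PANC-1.

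**Figure D3:**
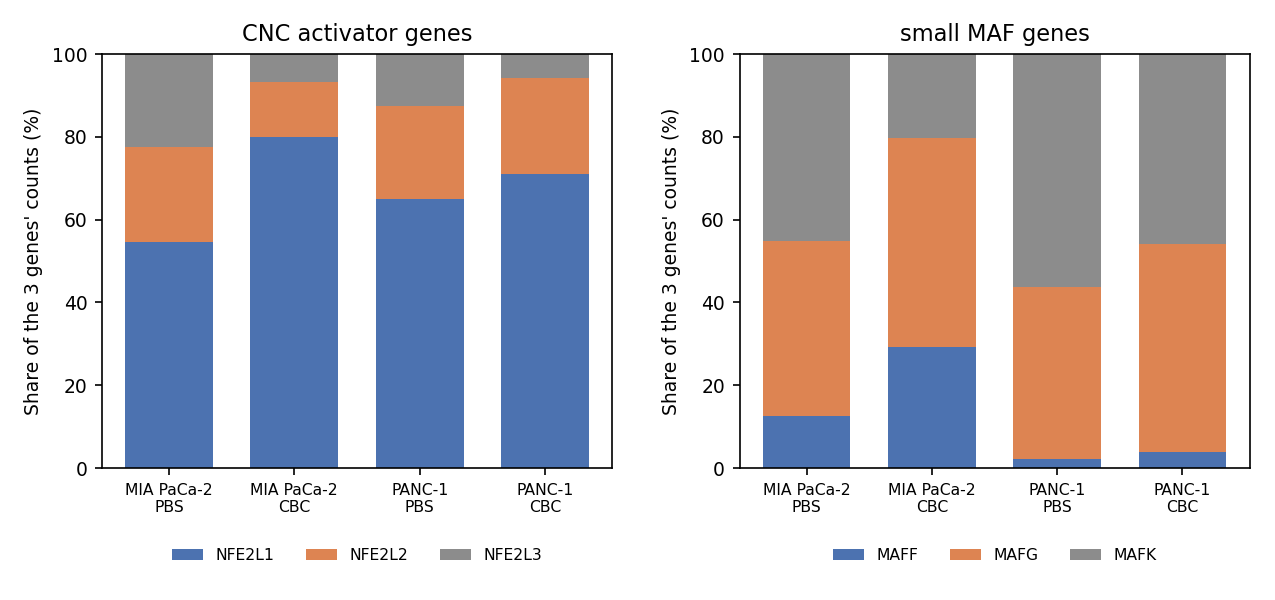
Share (%) of the summed counts of the 3 CNC activator genes (left) and of the 3 small MAF genes (right) in each library, as stacked bars. Counts are not adjusted for transcript length. MAFF is 29.3% of the small MAF counts in CBC-treated MIA PaCa-2 and 3.80% in CBC-treated PANC-1, and NFE2L1 is the largest part of the CNC counts in all 4 libraries, at 54.6% to 79.9%.

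Among the CNC activators, NFE2L1 differed most with CBC in MIA PaCa-2 and in the fit over both lines, and NFE2L3 differed most in PANC-1. NFE2L1 (ENSG00000082641, chr17:48048329-48061545, plus strand) had 4166 counts (187 CPM) with PBS and 17009 counts (688 CPM) with CBC in MIA PaCa-2, and 11202 counts (493 CPM) and 18336 counts (671 CPM) in PANC-1. The MIA PaCa-2 control was the lowest library, and the CBC libraries of both lines lay close together. NFE2L1 was 3.67-fold higher with CBC in MIA PaCa-2 (log2 1.88, interval 1.83 to 1.93) and 1.36-fold higher in PANC-1 (log2 0.45, interval 0.41 to 0.48). The difference between these log2 fold changes, PANC-1 less MIA PaCa-2, was -1.43 (counting interval -1.49 to -1.37), the largest of the 8 genes, and 1 library per condition gives no test of it. Over both lines the value was 1.17 ± 0.33 (SE, n = 2 libraries per treatment), short of the threshold (adjusted p = 0.0922 by edgeR's quasi-likelihood test, Benjamini-Hochberg). It passed with DESeq2's Wald test (adjusted p = 0.0455) and without the filter on low counts (adjusted p = 2.79e-07 by edgeR's quasi-likelihood test, Benjamini-Hochberg). In the same edgeR test NFE2L1 did not pass with DESeq2 size factors (adjusted p = 0.122), with library totals (0.0766) or without the block for cell line (0.99995). The lncRNA gene NFE2L1-DT, which starts 222 bases away on the other strand, had 33 and 64 counts in MIA PaCa-2 (log2 0.77, interval 0.17 to 1.45) and 57 and 61 in PANC-1 (log2 -0.16, interval -0.71 to 0.38).

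NFE2L2, which encodes NRF2, differed less with CBC than NFE2L1 did in MIA PaCa-2. NFE2L2 (ENSG00000116044, chr2:177218667-177392756, minus strand) had 1750 counts (78.7 CPM) and 2855 counts (115 CPM) in MIA PaCa-2 and 3868 counts (170 CPM) and 5993 counts (219 CPM) in PANC-1, PBS first. Both PANC-1 libraries lay above both MIA PaCa-2 libraries, an order whose share over all genes is not given here. The log2 fold change with CBC was 0.55 (interval 0.47 to 0.64) in MIA PaCa-2 and 0.37 (0.31 to 0.43) in PANC-1. The fit over both lines gave 0.47 ± 0.20 (SE, adjusted p = 0.235 by edgeR's quasi-likelihood test, Benjamini-Hochberg). AGPS, which starts 10 bases from NFE2L2 on the other strand, was lower in both CBC libraries, with 2421 and 1795 counts in MIA PaCa-2 (log2 -0.58, interval -0.67 to -0.50) and 3495 and 3252 in PANC-1 (log2 -0.37, interval -0.44 to -0.30).

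NFE2L3, the CNC gene whose product is least understood, was the only one of the 8 with lower levels in both CBC libraries. NFE2L3 (ENSG00000050344, chr7:26152198-26187137, plus strand) had 1708 counts (76.8 CPM) with PBS and 1414 counts (57.2 CPM) with CBC in MIA PaCa-2, and 2144 counts (94.3 CPM) and 1510 counts (55.3 CPM) in PANC-1. Its CBC libraries differed little from each other. The log2 fold change was -0.43 (interval -0.53 to -0.32) in MIA PaCa-2 and -0.77 (-0.87 to -0.68) in PANC-1, and the fit gave -0.59 ± 0.22 (SE, adjusted p = 0.180 by edgeR's quasi-likelihood test, Benjamini-Hochberg). NFE2L3 and NFE2L2 overlap genes on the other strand over 28.1% and 23.4% of their exon bases (HNRNPA2B1 and HNRNPA3), and MAFK overlaps TMEM184A over 18.1%. The library kit keeps the strand, but whether the counting used it is not given in the sources used here. NFE2L2 also shares 13.6% of its exon bases with the lncRNA gene ENSG00000213963 on the same strand. That gene had 47 and 88 counts in MIA PaCa-2 and 69 and 158 in PANC-1, PBS first. Its part in the NFE2L2 counts was not tested.

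NFE2L1 made up 54.6% (Wilson 95% interval 53.5 to 55.8) of the counts of the 3 CNC activators in the MIA PaCa-2 control and 79.9% (79.4 to 80.5) with CBC. In PANC-1 its share was 65.1% (64.4 to 65.8) and 71.0% (70.4 to 71.5). NFE2L3 went from 22.4% to 6.65% in MIA PaCa-2 and from 12.5% to 5.84% in PANC-1, while NFE2L2 was at 23.0% and 13.4% in MIA PaCa-2 and at 22.5% and 23.2% in PANC-1. The NFE2L2 share was thus lower with CBC in MIA PaCa-2 and nearly level in PANC-1.

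The repressor BACH1 was higher in both CBC libraries, and the inhibitor KEAP1 was nearly level. BACH1 (ENSG00000156273, chr21:29194071-29630751, plus strand) had 625 counts (28.1 CPM) with PBS and 1096 counts (44.3 CPM) with CBC in MIA PaCa-2, and 636 counts (27.97 CPM) and 1060 counts (38.8 CPM) in PANC-1. The controls of the lines were alike and the CBC libraries lay above them, an order whose share over all genes is not given here. Its log2 fold change was 0.66 (interval 0.51 to 0.80) in MIA PaCa-2 and 0.47 (0.33 to 0.62) in PANC-1, and the fit gave 0.57 ± 0.24 (SE, adjusted p = 0.228 by edgeR's quasi-likelihood test, Benjamini-Hochberg). KEAP1 (ENSG00000079999, chr19:10486125-10503558, minus strand) had 1530 counts (68.8 CPM) and 1825 counts (73.8 CPM) in MIA PaCa-2 and 2322 counts (102 CPM) and 2525 counts (92.4 CPM) in PANC-1, PBS first. It was slightly higher with CBC in MIA PaCa-2 and slightly lower in PANC-1. The log2 fold changes were 0.10 (interval 0.0021 to 0.20) and -0.14 (-0.23 to -0.062), and the fit gave -0.016 ± 0.21 (SE, adjusted p = 0.977 by edgeR's quasi-likelihood test, Benjamini-Hochberg).

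Ratios of levels per kb of canonical transcript set activator against inhibitor and repressor. NFE2L2 stood to KEAP1 at 1.20 with PBS and 1.64 with CBC in MIA PaCa-2, and at 1.75 and 2.49 in PANC-1. NFE2L2 stood to BACH1 at 6.43 and 5.98 in MIA PaCa-2 and at 13.97 and 12.99 in PANC-1. The ratio to KEAP1 was thus higher with CBC in both lines and that to BACH1 was not. The size of these ratios depended on the length used. With the length of all annotated exons, NFE2L2 stood to KEAP1 at 0.273 and 0.373 in MIA PaCa-2 and 0.397 and 0.566 in PANC-1, below 1 in every library. NFE2L2 stood to BACH1 at 1.43 and 1.33 in MIA PaCa-2 and 3.11 and 2.89 in PANC-1 on that length. On this per kb scale NFE2L1 had the highest level of the 8 genes in every library, from 38.7 CPM per kb in the MIA PaCa-2 control to 142 with CBC, and from 102 to 139 in PANC-1. NFE2L2 was next in all 4 libraries, at 32.2 to 89.7 CPM per kb. BACH1 and MAFF held the lowest places in 3 libraries, while in CBC-treated MIA PaCa-2 cells MAFF, at 41.0 CPM per kb, came next after NFE2L2. With the length of all annotated exons in place of the canonical transcript, NFE2L1 still ranked first in every library, but NFE2L2 ranked 5 to 7, its annotated exons covering 14975 bases against 2446 in the canonical transcript.

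Between the lines, MAFF was lower in PANC-1 and most of the other genes were higher there. In the PBS libraries, 4 of the 8 genes were past the threshold in the direction of PANC-1, where 24.0% of 14805 genes were. The 4 were MAFK (2.75-fold, log2 1.46, interval 1.37 to 1.55), NFE2L1 (2.63-fold, log2 1.39, 1.34 to 1.45), NFE2L2 (2.16-fold, log2 1.11, 1.03 to 1.19) and MAFG (2.16-fold, log2 1.11, 1.01 to 1.21). In the other direction 1 of the 8 was past it, against 18.0% of all genes, namely MAFF at a log2 value of -1.35 (interval -1.65 to -1.07), which is 2.54-fold lower. KEAP1 (log2 0.57, interval 0.48 to 0.66) and NFE2L3 (0.30, 0.20 to 0.39) were below the threshold, and BACH1 did not differ beyond counting error (-0.0069, -0.17 to 0.15). Scaling by library totals in place of TMM moved every log2 value between the PBS libraries by -0.13, and NFE2L2 and MAFG, at 0.98 each, were then no longer past the threshold.

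**Figure D4:**
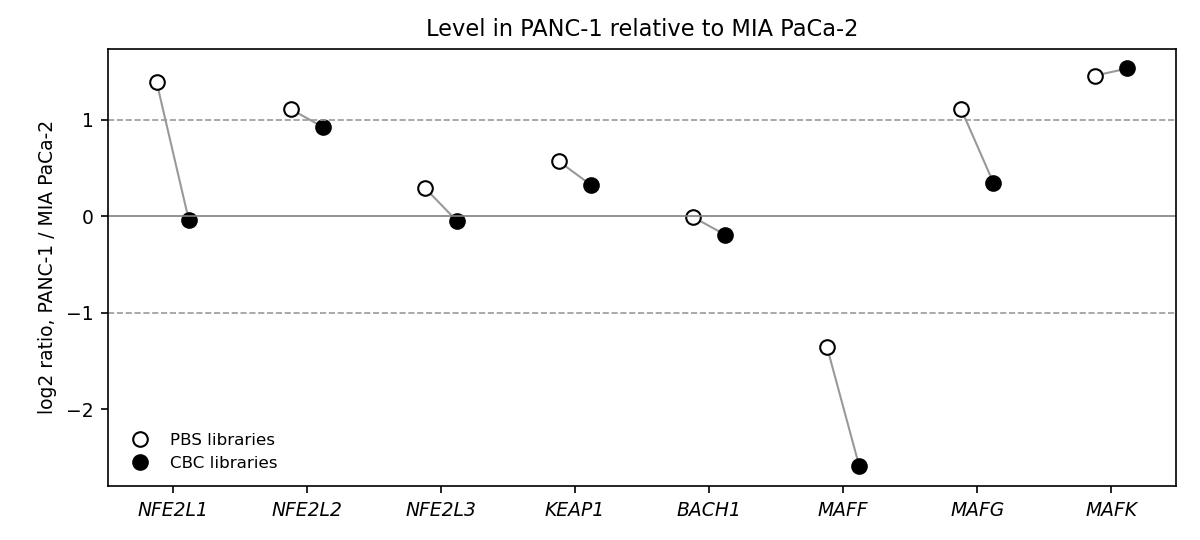
Log2 ratio of TMM-scaled CPM in PANC-1 over MIA PaCa-2 for each gene, in the PBS libraries (open) and in the CBC libraries (filled). Dashed lines lie at 1 and -1. MAFK stays above 1 in both (2.75-fold and 2.89-fold), and NFE2L1 goes from 2.63-fold to 0.976-fold.

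The line term of the fit, with treatment as the block, called 3 of the 8 genes. MAFK was higher in PANC-1 by 1.44 ± 0.20 on the log2 scale (SE, n = 2 libraries per line, adjusted p = 0.00105 by edgeR's quasi-likelihood test, Benjamini-Hochberg), and NFE2L2 by 0.96 ± 0.20 (adjusted p = 0.00619 in the same test). These are 2 of the 8 genes, where 25.1% of all genes were called higher. MAFF was lower in PANC-1, at -2.06 ± 0.35 (SE, n = 2 libraries per line, adjusted p = 0.00246 by edgeR's quasi-likelihood test, Benjamini-Hochberg), and 21.7% of all genes were called lower. MAFG (0.67 ± 0.25, adjusted p = 0.0563) and NFE2L1 (0.62 ± 0.32, adjusted p = 0.152) were not called in that fit, nor were KEAP1, NFE2L3 and BACH1 (adjusted p from 0.168 to 0.832, all by edgeR's quasi-likelihood test, Benjamini-Hochberg). Without the block for treatment, MAFK kept its call (adjusted p = 0.0173), and NFE2L2 (0.0787) and MAFF (0.112) lost theirs by edgeR's quasi-likelihood test with Benjamini-Hochberg adjustment. The ratio of PANC-1 to MIA PaCa-2 in the PBS libraries and in the CBC libraries was 2.75 and 2.89 for MAFK and 2.16 and 1.90 for NFE2L2. It was 0.390 and 0.166 for MAFF and 2.16 and 1.27 for MAFG. MAFF thus differed more between the lines in the CBC libraries, and MAFG and NFE2L1 less.

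Genes on which these factors act, or that act on them, were described from lists. The lists were written with earlier results of these data known, so their comparison with all genes is a description and no test. The study had already reported HMOX1, SLC7A11 and FTH1, which are among the targets, as raised by CBC. Of 32 genes known as NRF2 or BACH1 targets, 29 were compared in MIA PaCa-2 and 27 in PANC-1, and 8 and 9 of them were past the threshold in the higher direction, with 0 in the lower in either line. Of all genes, 11.5% in MIA PaCa-2 and 7.71% in PANC-1 were past it in the higher direction and 8.97% and 7.03% in the lower. The median log2 fold change of the targets was 0.40 in MIA PaCa-2 and 0.51 in PANC-1, against -0.014 and 0.020 over all genes. A set of 6 genes was past the threshold in both lines (FTH1, HMOX1, OSGIN1, SLC7A11, TRIM16L and TXNRD1). The share of all genes past it in both lines is not given here, so this overlap has no background to be read against. Over both lines 8 of 29 rose and 0 fell by edgeR's quasi-likelihood test, where 2.26% of all genes were called higher and 2.45% lower. HMOX1, the heme oxygenase gene that BACH1 represses, had 235 and 9976 counts in MIA PaCa-2 and 882 and 27932 in PANC-1, PBS first. It rose over both lines by 4.99 ± 0.24 on the log2 scale (SE, adjusted p = 0.000761 by edgeR's quasi-likelihood test, Benjamini-Hochberg). OSGIN1, an oxidative stress-induced growth inhibitor, had log2 fold changes of 2.33 and 3.08, and SLC7A11, the cystine transporter subunit, of 1.78 and 2.62, in MIA PaCa-2 and PANC-1. Both were called (adjusted p = 0.00658 and 0.00865 by edgeR's quasi-likelihood test, Benjamini-Hochberg). NQO1, a standard NRF2 target, was at -0.028 in MIA PaCa-2 and 0.81 in PANC-1, and GCLM, the modifier subunit of glutamate-cysteine ligase, at -0.51 and 0.73. GCLC, the catalytic subunit of the same enzyme, was at 2.09 in MIA PaCa-2 and 0.66 in PANC-1. NQO1, GCLM and GCLC, which were not called, were picked out after their values were seen.

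Of 20 genes of the KEAP1 ligase, NRF2 turnover and coactivators, 3 were past the threshold in the higher direction and 2 in the lower in MIA PaCa-2, and 1 in the higher and 0 in the lower in PANC-1. The MIA PaCa-2 counts stand beside 11.5% and 8.97% of all genes and the PANC-1 counts beside 7.71% and 7.03%, and the medians were -0.11 and -0.088. Over both lines 1 of the 20 was called, where 2.26% of all genes were called higher. This was SQSTM1, the autophagy receptor p62 that binds KEAP1. It had 4008 and 35559 counts in MIA PaCa-2 and 11175 and 53273 in PANC-1, and rose over both lines by 2.50 ± 0.26 on the log2 scale (SE, adjusted p = 0.00657 by edgeR's quasi-likelihood test, Benjamini-Hochberg). SYVN1, the endoplasmic reticulum ligase HRD1, had log2 fold changes of 1.53 and 0.35 and TRIM21 of 1.26 and 0.077. The 2 genes past the threshold in the lower direction in MIA PaCa-2 were RBX1 (-1.06, against -0.32 in PANC-1) and CUL3 (-1.0006, against -0.12), the other subunits of the ligase that KEAP1 serves. CUL3 lies at the threshold itself, and neither gene was called over both lines (adjusted p = 0.213 and 0.256 by edgeR's quasi-likelihood test, Benjamini-Hochberg). CUL3 and TRIM21 were named after their values were seen.

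Among the 33 proteasome subunit genes, on which NRF1 acts, 0 were past the threshold in either line. Of all genes, 11.5% in MIA PaCa-2 and 7.71% in PANC-1 were past it in the higher direction and 8.97% and 7.03% in the lower. The log2 fold changes of the 33 genes ran from -0.45 to 0.98 in MIA PaCa-2 (median -0.11) and from -0.59 to 0.14 in PANC-1 (median -0.38). ADRM1, the ubiquitin receptor of the proteasome, was at 0.98 and -0.21 and the ATPase gene PSMC4 at 0.81 and -0.18 in MIA PaCa-2 and PANC-1, while the core subunit gene PSMA2 was at -0.36 and -0.57. None of the 33 was called by edgeR's quasi-likelihood test or by DESeq2, where edgeR called 2.26% of all genes higher and 2.45% lower. In edgeR 1 of the 33 had an unadjusted p under 0.05, against 20.9% of all genes. Of 9 genes that process or turn over NRF1, 1 was past the threshold in each line, SYVN1 in MIA PaCa-2 and OGT, the O-GlcNAc transferase, in PANC-1 (log2 1.52, against 0.39 in MIA PaCa-2), and FBXW7 was at 0.57 and 0.083. SYVN1 and OGT were past it in the higher direction, beside 11.5% and 7.71% of all genes. The medians of the 9 genes were 0.20 and 0.083, and 0 were called by edgeR or DESeq2, with 2 of 9 at an unadjusted p under 0.05, a share near that of all genes (20.9%). The 4 genes of BACH1 turnover had medians of -0.54 and -0.13, with 0 past the threshold and 0 called by either tool or at an unadjusted p under 0.05. CUL1 was at -0.61 and -0.21, SKP1 at -0.56 and -0.066, and FBXL17 at -0.52 and 0.098.

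Of 6 other CNC, BACH and large MAF genes, 3 were compared in each line, with 1 past the threshold in the higher direction in MIA PaCa-2 and 2 in PANC-1, against 11.5% and 7.71% of all genes. MAFA had 36 and 61 counts in MIA PaCa-2 and 10 and 34 in PANC-1, and NRL had 19 and 28 counts and 15 and 44. Both were at the lower end of the range of counts compared. None was called by edgeR or DESeq2, and 0 had an unadjusted p under 0.05.

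**Figure D5:**
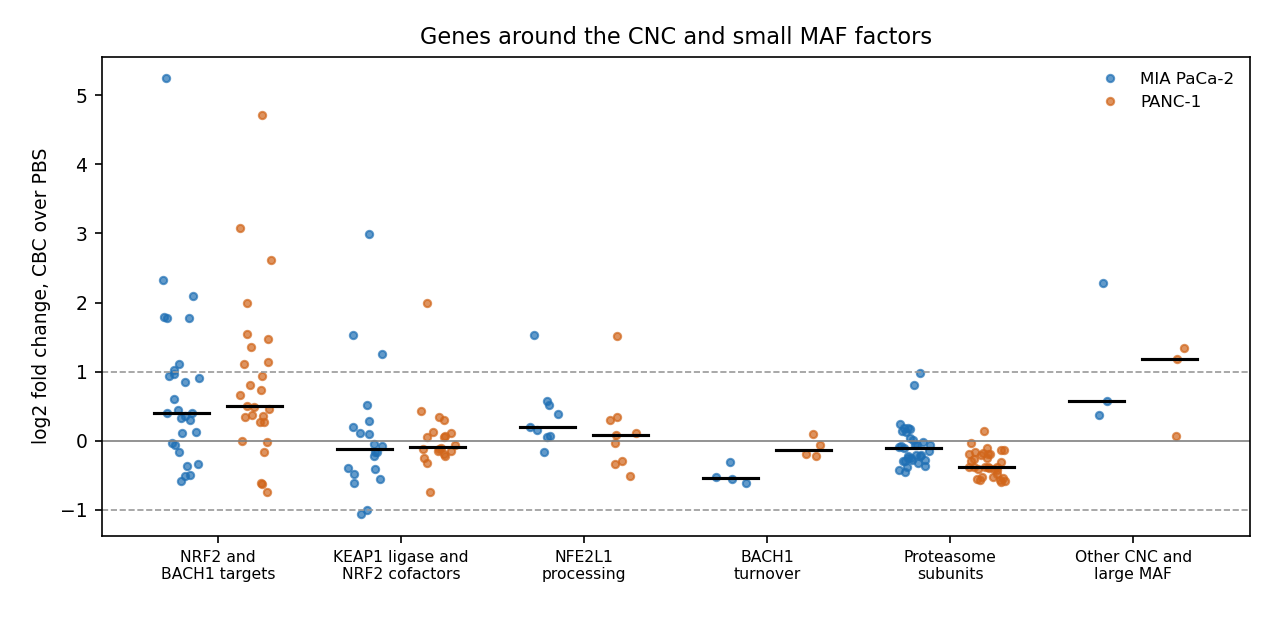
Log2 fold change of CBC over PBS for the genes of 6 lists in MIA PaCa-2 and PANC-1, 1 point per gene compared, spread sideways at random, with a black bar at each median and dashed lines at 1 and -1. The 33 proteasome subunit genes lie between -0.59 and 0.98, and HMOX1 is the highest point in both lines, at 5.24 and 4.72.

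The genes with the pattern most like that of each of the 3 genes past the threshold were found by the distance over 3 log2 values, namely the changes with CBC in the lines and the difference between the PBS libraries. The 9714 candidates were protein-coding with a mean of at least 10 CPM, and the values share their control libraries. Nearest to NFE2L1 were DYRK3 (distance 0.108), STX1A (0.148) and SELENOS (0.210). Nearest to MAFG were ZNF140 (0.142), ARMCX3 (0.153) and SLC41A2 (0.161). MAFF had no neighbour as close, and RELB (0.458), PLAUR (0.575) and CLDN1 (0.666) were the nearest to it.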

How the data were processed

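Expression was measured by mRNA sequencing in 4 libraries. The authors selected poly(A) RNA and prepared directional libraries for paired-end reads. Trimming was done with cutadapt 2.7, alignment with STAR on GRCh38, and counting with HTSeq on Ensembl release 89. Versions of STAR and HTSeq and the strand setting are not given in the sources used here. The deposited values used are raw counts per gene without normalization. The deposited CPM files were not used. Positions and lengths came from GENCODE release 44 on GRCh38, and 57392 of 58233 identifiers matched a symbol.

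Log2 fold changes were computed with edgeR 4.0.16 in R 4.3.3 (TMM, prior count 2), with Clopper-Pearson 95% intervals that cover counting error only. These intervals came from R for the 8 genes and from scipy 1.17.1 for NFE2L1-DT, AGPS and MILIP. Wilson intervals also came from scipy and likewise cover counting error only. A count of 0 allows up to 3 counts, or 0.110 to 0.135 CPM. Treatment and line were tested in 1 additive model by edgeR's quasi-likelihood test with filterByExpr and Benjamini-Hochberg adjustment over 16381 genes, with 1 residual degree of freedom and a common coefficient of variation of 23.0%. The SE is the fitted log2 fold change divided by the square root of its F statistic, and this fit uses edgeR's default prior count. Nothing says that the libraries are separate experiments beyond their lines and treatments. The p-values rest on how far the lines disagree in their change with CBC and on variability shared across genes. They measure no spread between replicates of a condition. The cell lines pair the libraries, and same-line deviations from the treatment means correlated at 0.923 across genes. The scripts were tested on simulated data. Alternatives changed the scaling, prior count, filter, call rule, block and tool (DESeq2 1.42.0), and the length used per kb. Members and lists were chosen with earlier results of these data known. Named genes are the 8 members, the 3 genes of each list compared in both lines with the largest mean absolute log2 fold change, and the 3 nearest genes to each member past the threshold. Figures were drawn with matplotlib 3.10.9.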

Additional observations from a re-analysis of the deposited data

Results flagged for a closer look

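KEAP1 was the 1 gene of the 8 whose log2 fold change with CBC had opposite signs in the lines, at 0.10 (95% counting interval 0.0021 to 0.20) in MIA PaCa-2 and -0.14 (-0.23 to -0.062) in PANC-1. The difference between the lines was not tested, since each condition had 1 library. The signs kept under every scaling run, and both values are small beside the threshold of 1.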

How the results depend on the processing

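The fits over both lines depended on the block. Without the replicate block for cell line, edgeR called 0 genes for CBC against PBS (771 with it, and 354 had an unadjusted p under 0.05 without it) and 0 of the 8 members (2 with it). Without the block for treatment it called 4251 genes between the lines (7652 with it) and 1 member, MAFK (3 with it). With no filter on low counts 2063 genes were called for CBC, with NFE2L1 added to MAFF and MAFG, and 5 members were called between the lines, with NFE2L1 and MAFG added. DESeq2's Wald test called 1311 genes for CBC. Library totals in place of TMM shifted log2 values by 0.065 in MIA PaCa-2, 0.070 in PANC-1 and -0.13 between the PBS libraries, leaving 3 of the 5 members past the threshold there. They also turned the sign of the fitted values of KEAP1 with CBC (to 0.0456) and of NFE2L3 between the lines (to -0.0065), neither of which was called. The cause was not tested. The count of members past the threshold in each line stayed within 1.5 times under every alternative run. Leaving out a library leaves 1 line or 1 treatment with a single comparison and no residual degrees of freedom, so the values per line stand for it, with no test. The length per kb, for levels and ratios, was an alternative added after seeing the data. Counting depth limits MAFF most, at 140 counts in the PANC-1 control.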
